A study of Mus musculus with 6 samples.

Results

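Mucins and the genes that set up goblet cells were examined as 10 genes chosen by name, namely Muc1, Muc4, Muc5ac, Muc5b, Muc16, Muc20, Spdef, Foxa3, Agr2 and Tff2. A gene was taken to be on the array when a transcript probe carried one of its RefSeq accessions. This was the case for 9 of the 10, among 22910 genes reached in the same way, and no such probe was found for Muc16. The 9 genes had 13 probes. The cells were 2D-MAOs, airway epithelial cells of C57BL/6 mouse lung that were grown as organoids, dissociated and plated as a flat sheet on collagen. TGF-β1 was given to 3 cultures from day 3 and 3 cultures were kept without it as controls, and all were collected on day 7. From day 3 the medium of the cultures lacked noggin, an inhibitor of BMP ligands, and A83-01, an inhibitor of the TGF-β type I receptor. The labels name 3 replicates per group as biological, but do not give the age of the mice or say whether the replicates came from separate mice, so that p-values measure the spread between these cultures. The question was what TGF-β1, added before the cells met tumour cell clusters, changed in the airway epithelium.

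Mucins are large proteins that carry dense O-linked sugar chains. The gel-forming mucins are stored in granules and secreted to make airway mucus, while the membrane-bound mucins stay on the apical surface and form a brush there. Goblet cells make the gel-forming kind in quantity, under transcription factors such as SPDEF and FOXA3, and need the folding protein AGR2 to release it. In the airways of mice goblet cells are scarce at rest and arise from club cells when interleukin 13 or related signals act.

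Each culture was read on 1 array with 1 dye, so that a value is the brightness of a probe. Brightness depends on the probe, and levels were therefore compared between arrays and not between genes. The log2 signals were normalised by quantiles. Between 55.0% and 59.0% of probes were well above background on an array, and the dimmest such probe of an array had a linear signal of 11.9 to 16.8. TGF-β1 replicate 3 stood apart from the other treated arrays. Its distance to them over all genes was 61.1 and 62.3 on the log2 scale, against 32.3 between the other two, and its distance to the control arrays was 54.4 to 60.9. DEG calls that changed without this array are given both ways, by name or by count. Without it 15.4% of all genes had a limma adjusted p under 0.05, with 3.86% higher and 1.09% lower as DEGs. A response to TGF-β1 was measured in its target genes, with Tgfbi higher by 4.58, Pmepa1 by 1.31 and Tgif1 by 0.92 (log2 fold changes, limma adjusted p = 0.00247, 0.00616 and 0.0226). Tgfbi and Pmepa1 had an adjusted p under 0.05 in all 6 fits with 1 array left out, and Tgif1 in 1. That was the fit without TGF-β1 replicate 3, where Tgif1 was a DEG (1.03, limma adjusted p = 0.00739).

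Several genes that define goblet cells were below what the arrays could measure. Of the 9 genes with a probe, 4 never reached a level well above background on the 6 arrays: Muc5ac and Muc5b, the gel-forming mucins of the airway, Foxa3 and Tff2. A further 5 were tested, namely Muc1, Muc4, Muc20, Agr2 and Spdef, of which 4 were well above background on all 6 arrays and Agr2 on 4. None of the 5 was a DEG, defined as a gene that changed at least 2-fold with an adjusted p below 0.05 (limma, Benjamini-Hochberg). By the same rule 1.38% of all 14345 genes tested were DEGs, 1.19% higher and 0.188% lower. Without the fold threshold 0 of the 5 had an adjusted p below 0.05 in limma, beside 2.04% of all genes. At an unadjusted p under 0.05 limma gave 1 of the 5, Muc4, where the share of all genes was 22.2%. The methods' t-test, an unpaired test on each gene, also gave 0 of the 5 at 2-fold, with or without adjustment. The groups did not overlap in 1 of the 5, again Muc4, beside 26.4% of all genes in either direction. The log2 fold change was below 0 in 4 of the 5 genes, as in 54.2% of all genes, and their median was -0.21, beside -0.031 for all genes.

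**Figure D1:**
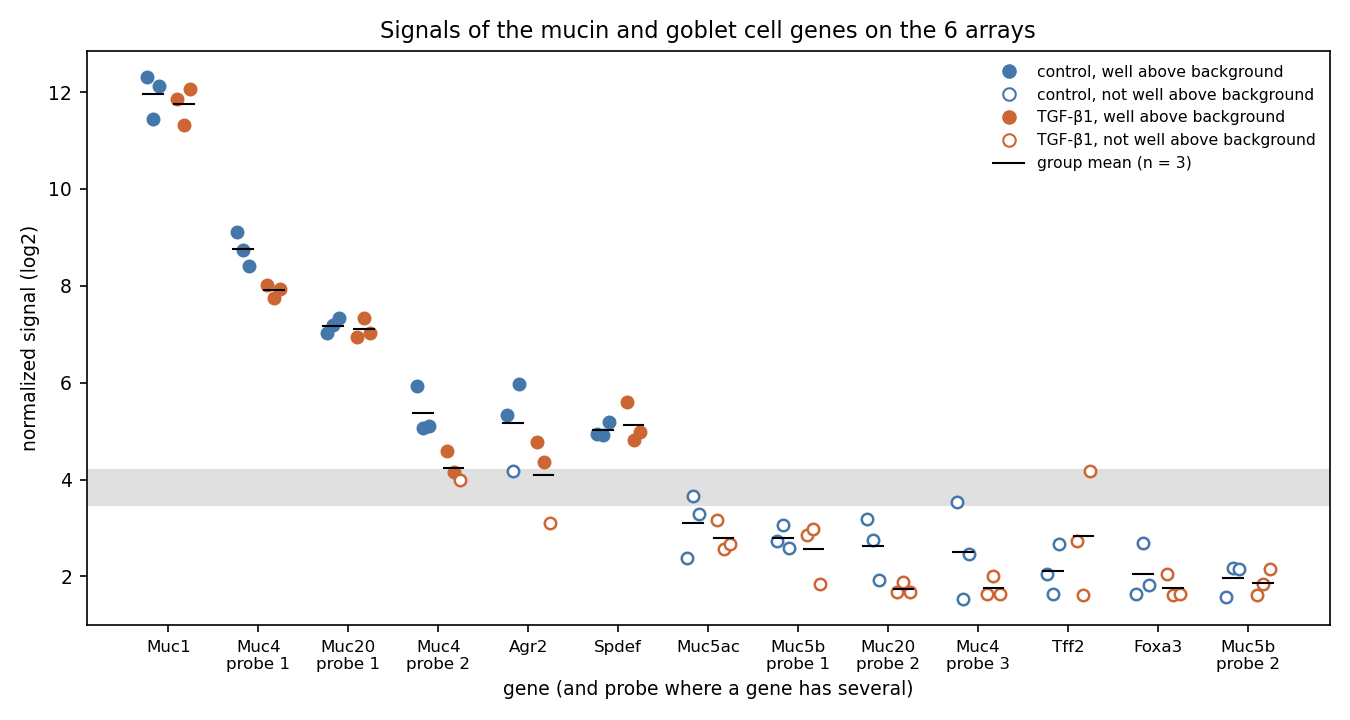
Normalised signal (log2, vertical axis) of each of the 13 probes, ordered by the control mean, with 3 control and 3 TGF-β1 arrays per probe as points and group means as black lines. Filled points were well above background, and the grey band spans the lowest log2 signal of such probes over the arrays; brightness depends on the probe, so heights are not comparable between probes. Only the probes of Muc1, Muc4, Muc20, Agr2 and Spdef had filled points, and the 2 probes of Muc4 with filled points were lower on every TGF-β1 array than on every control array.

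The airway gel-forming mucins Muc5ac and Muc5b were not measurable in either group. Muc5ac, which encodes the mucin that goblet cells of the airway surface add in allergic inflammation, had linear signals of 5.22, 10.01 and 9.82 in controls and of 10.5, 6.40 and 6.33 after TGF-β1. All 6 were below the dimmest signal called well above background on any array. The spot was 1.59 to 1.92 times as bright as its local background. Muc5b, which encodes the main mucin of resting mouse airways, had 2 probes, and their linear signals lay between 3.16 and 8.43 on the 6 arrays. The values of the groups overlapped for the probe of Muc5ac and for both probes of Muc5b. No fold change is given for these genes, because both groups were not well above background. Muc2, the gel-forming mucin of the intestine, was the only member tested in a list of 11 other mucins. In log2 signal the controls had 8.90 ± 0.16 (SD, n = 3) and the treated cultures 9.36 ± 0.18 (SD, n = 3), with a difference of 0.46 (SE 0.14). The groups of Muc2 did not overlap, and its adjusted p from limma was 0.150. In that list Muc13 was well above background on 1 array, and Muc15 and Mucl2 on 0.

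Among membrane-bound mucins, Muc4 had the lowest p and lay lower after TGF-β1. MUC4 is a long mucin of airway epithelium with EGF-like domains, known as a partner of the receptor ERBB2. Its brightest probe had log2 signals of 9.10, 8.74 and 8.41 in controls and of 8.02, 7.76 and 7.94 after TGF-β1. Every treated culture was lower than every control culture, and the controls were spread more widely. The means were 8.75 ± 0.35 (SD, n = 3) and 7.91 ± 0.14 (SD, n = 3). The log2 fold change was thus -0.85 (SE 0.19, 95% interval -1.29 to -0.40). This is 1.80-fold lower signal after TGF-β1. The limma p was 0.00305 before and 0.0815 after adjustment over all genes, so that Muc4 did not pass. An exact two-sided permutation test over the 6 arrays gave p = 0.1, the smallest that 3 against 3 allows. Among all genes tested, 13.5% likewise had groups that did not overlap with the treated arrays lower, and 1.51% had a log2 fold change as low as that of Muc4.

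The other probes of Muc4 bear on the same gene. The next brightest had log2 signals of 5.94, 5.07 and 5.10 in controls and of 4.58, 4.16 and 4.0 after TGF-β1. It was detected, that is well above background, in every control and in 2 treated cultures. Its treated values were also all below its control values, by 1.12 in the means on the log2 scale. The third probe was well above background on 0 arrays, with linear signals up to 11.4. With the probes that passed averaged, the log2 fold change of Muc4 was -0.98 (limma adjusted p = 0.0804). In bulk RNA a lower signal can come from fewer cells that use the gene or from less RNA per cell, and these cannot be told apart here.

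Whether Muc4 passed depended on single arrays. Its log2 fold change lay between -1.03 and -0.67 in 18 other settings, below 0 in all, and its adjusted p lay between 0.00815 and 0.269. With TGF-β1 replicate 3 left out it was -0.86 (limma adjusted p = 0.0496, a threshold that 15.4% of all genes passed in that fit), and with control replicate 3 left out it was -1.02 (limma adjusted p = 0.0483), which made Muc4 a DEG. Without any of the other 4 arrays the adjusted p was 0.206 to 0.269. Replicate 3 of each group lay in slide row 2 and the other arrays in slide row 1. Within slide row 1, with 2 arrays per group, the log2 fold change was -1.03 (limma adjusted p = 0.0224). With slide row as a block the adjusted p was 0.0758, and slide row 2, with 1 array per group, gave no test.

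**Figure D2:**
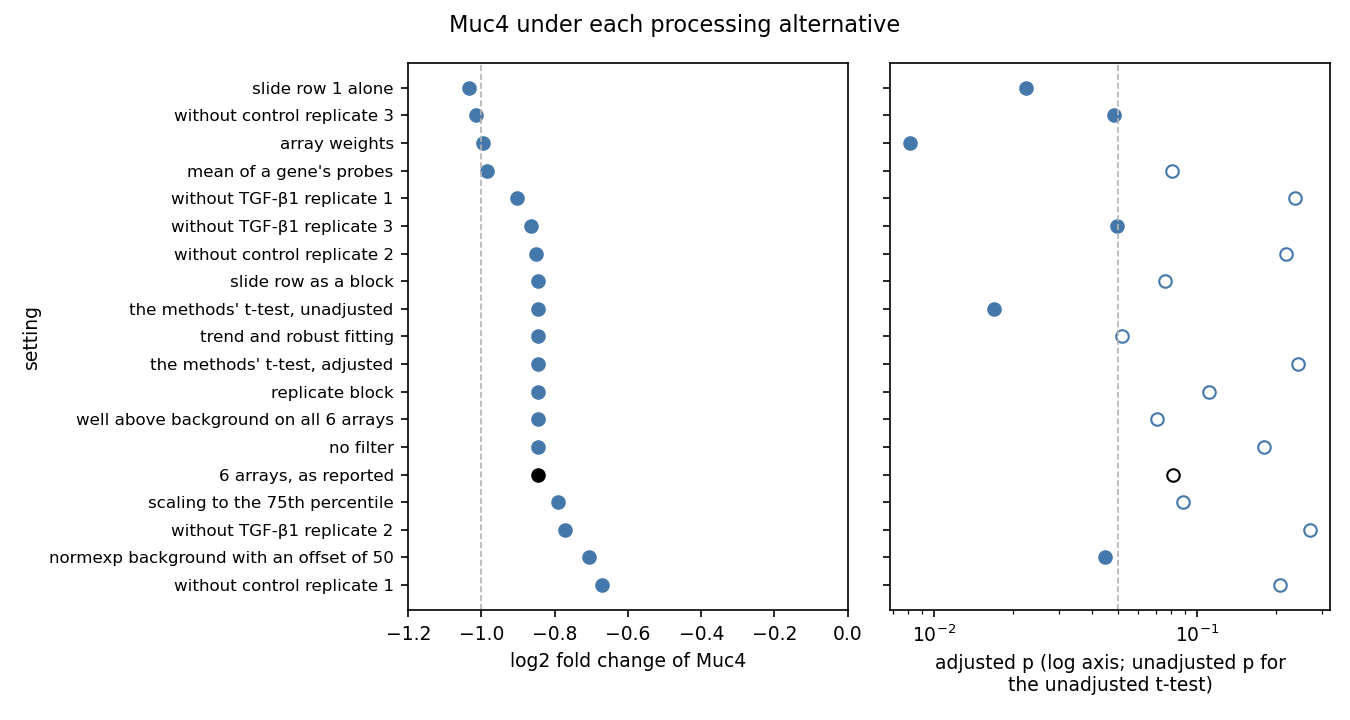
Log2 fold change of Muc4, TGF-β1 minus control (left, dashed line at 2-fold lower), and its p (right, log axis, dashed line at 0.05) under the reported setting in black and 18 alternatives in blue, where filled points on the right are under 0.05. The fold change stayed below 0 throughout, while p lay on either side of 0.05 and was under it in 6 of the 18 alternatives, of which 1 used an unadjusted p.

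The neighbouring mucin gene Muc20 was also measured, and its change was not tested against that of Muc4. MUC20 is a short membrane-bound mucin known to bind the receptor MET. Its log2 signals were 7.03, 7.18 and 7.33 in controls and 6.95, 7.34 and 7.03 after TGF-β1, and the groups overlapped. The log2 fold change was -0.075 (SE 0.14, 95% interval -0.42 to 0.27, limma adjusted p = 0.773), and an exact permutation test gave p = 0.7. The interval leaves out a change of 2-fold in either direction. The sign depended on the scaling: scaling to the 75th percentile gave 0.045. The other probe of Muc20 was well above background on 0 arrays.

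Muc4 and Muc20 lie on opposite strands of chromosome 16. The 250 bases before the start of each are shown because the genes are neighbours. The sequences are those of RefSeq on GRCm38.p6, at chr16:32735636-32735885 (plus strand) for Muc4 and chr16:32797436-32797685 (minus strand) for Muc20. Capitals mark CAGAC or its reverse complement GTCTG, the core letters of the element that SMAD proteins bind.
Muc4: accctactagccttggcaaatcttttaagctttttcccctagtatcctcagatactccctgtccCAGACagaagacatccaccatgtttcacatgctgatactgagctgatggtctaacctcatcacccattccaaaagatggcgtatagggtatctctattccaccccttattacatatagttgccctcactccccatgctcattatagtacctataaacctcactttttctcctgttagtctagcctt
Muc20: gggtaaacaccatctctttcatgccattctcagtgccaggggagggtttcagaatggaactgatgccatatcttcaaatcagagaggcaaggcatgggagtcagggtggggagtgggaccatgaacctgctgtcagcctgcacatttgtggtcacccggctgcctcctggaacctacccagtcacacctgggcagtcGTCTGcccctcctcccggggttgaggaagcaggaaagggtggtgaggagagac
Each window held these letters once, 186 bases before the start of Muc4 and 53 bases before that of Muc20, counted to the first base of the match. A promoter sequence was held for 7 of the 10 genes, and Spdef was the only other one with CAGAC on either strand. The letters were present in 42.2% of 32851 mouse promoter windows of this length. TGANTCA, the letters bound by AP-1, was in none of the 7 windows and in 6.75% of all windows. TGTTTAC, a forkhead motif, was present in the window of Muc20 and in 3.17% of all windows. All motifs were searched on both strands, none of the 3 contains another, and a match is a description of the sequence only.

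Muc1 was bright in both groups. MUC1 is a membrane-bound mucin found on the apical surface of most glandular and airway epithelia. Its log2 signals were 12.31, 11.45 and 12.13 in controls and 11.87, 11.32 and 12.07 after TGF-β1. Replicate 2 was the lowest in each group, and the groups overlapped. The log2 fold change was -0.21 (SE 0.28, 95% interval -0.88 to 0.46, limma adjusted p = 0.670), with an exact permutation p of 0.5. Without TGF-β1 replicate 2 it was 0.0052. The interval leaves out a 2-fold change in either direction. Its spot was 71.4 to 157 times as bright as the local background, so that dimness did not limit this gene.

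**Figure D3:**
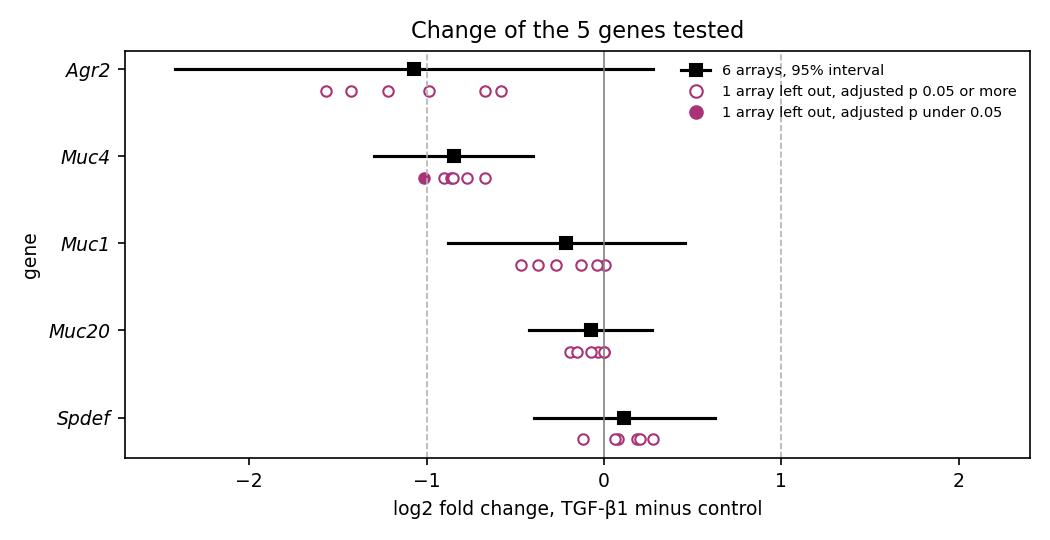
Log2 fold change, TGF-β1 minus control (horizontal axis), of the 5 genes tested, with squares for the 6 arrays, lines for the 95% interval from limma and circles for each fit with 1 array left out. Dashed lines mark 2-fold. The interval of Muc4, from -1.29 to -0.40, was the only one that did not hold 0, and that of Agr2 was the widest.

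Of the proteins that serve mucin secretion, Agr2 was near the limit of detection. AGR2 is a disulfide isomerase of the endoplasmic reticulum that goblet cells need to fold mucins. Its linear signals were 38.5, 14.3 and 62.1 in controls and 33.8, 22.1 and 8.53 after TGF-β1. On the log2 scale they were 5.34, 4.17 and 5.96, and 4.79, 4.37 and 3.10. Control replicate 2 and TGF-β1 replicate 3 were not well above background, and the groups overlapped. The log2 fold change was -1.07 (SE 0.57, 95% interval -2.42 to 0.27, limma adjusted p = 0.303), and the exact permutation p was 0.3. It was -0.58 without TGF-β1 replicate 3, -0.31 with normexp background and -0.18 within slide row 1. Tff2, which encodes a trefoil peptide secreted with mucus, had linear signals of 4.05, 3.09 and 6.34 in controls and of 7.69, 2.63 and 17.6 after TGF-β1. TGF-β1 replicate 3 was its brightest array and TGF-β1 replicate 2 its dimmest, and none of the 6 was well above background.

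Of the goblet cell transcription factors, Spdef was measured and Foxa3 was not. SPDEF is an ETS factor that goblet cells need to form, and FOXA3 is a forkhead factor that acts downstream of it. The log2 signals of Spdef were 4.95, 4.91 and 5.19 in controls and 5.59, 4.81 and 4.99 after TGF-β1. TGF-β1 replicate 1 was the highest and replicate 2 the lowest, so that the control values lay within the treated range. The log2 fold change was 0.12 (SE 0.21, 95% interval -0.39 to 0.62, limma adjusted p = 0.764), and the exact permutation p was 0.8. Without TGF-β1 replicate 1 it was -0.12. All 6 arrays had Spdef well above background, but the spot was only 1.70 to 2.70 times as bright as its surroundings. Foxa3 had linear signals of 2.60 to 5.30 over the 6 arrays, with overlapping groups.

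Lists of genes around mucus production were set beside these genes, and most of their members did not pass the test. Of 22 genes for O-glycosylation, the step that builds the sugar chains of mucins, 19 were tested and 0 were DEGs in limma. The fold change was above 1 in 12 and below 1 in 7, and the median on the log2 scale was 0.37. At an unadjusted limma p under 0.05 there were 6, all higher, where 11.4% of all genes were higher by that rule. The methods' t-test gave 2 at an unadjusted p under 0.05, neither of them 2-fold, where 17.1% of all genes had such a p. The largest log2 fold changes were those of the sialyltransferase St6galnac2 (0.77), of Galnt6 (0.73), which starts O-glycans, and of Gcnt1 (0.73), which branches them. The lowest were those of St3gal4 (-0.48), B3gnt6 (-0.43) and Gcnt3 (-0.18), with overlapping groups. The lowest adjusted p of the list was 0.124, in Galnt10 (0.67). Without TGF-β1 replicate 3, 4 of the 19 had a limma adjusted p under 0.05, beside 15.4% of all genes in that fit, and 1 was a DEG, Galnt6 (1.13).

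Among 23 goblet cell products and folding factors, 14 were tested. The other 9 had no array well above background, including Clca1, Tff1, Tff3 and Retnlb. The only DEG was Itln1, an intelectin that goblet cells secrete, where 1.19% of all genes were DEGs higher. No control array had it well above background, so that it entered the test through the treated arrays alone. Its signal after TGF-β1 was at least 8.28-fold higher. This bound sets the treated mean against the dimmest signal well above background. The limma adjusted p of 0.0463 rests on the control values themselves, which were not well above background. Itln1 was a DEG in 1 of the 6 fits with an array left out, that without TGF-β1 replicate 3 (at least 15.5-fold, limma adjusted p = 0.00536), and had an adjusted p of 0.0647 with normexp background. Bpifb1, a secreted BPI-fold protein of airway lining fluid, was likewise not well above background in controls and entered through the treated arrays alone. It was at least 1.41-fold higher (limma adjusted p = 0.143), or at least 1.32-fold without TGF-β1 replicate 3. In 1 of the 6 fits with an array left out its limma adjusted p was under 0.05 (0.0176). Creb3l4 had a log2 fold change of 0.51. The lowest were Sytl2 (-1.01), which tethers secretory granules, Ltf (-0.87), which encodes lactoferrin, and Tspan8 (-0.66), and none of these passed. Tspan8 had -0.84 with scaling to the 75th percentile (limma adjusted p = 0.0206) and -0.64 with normexp background (limma adjusted p = 0.0373), both under 2-fold. Ern2, the stress sensor IRE1β of mucus-producing cells, had -0.65 (limma adjusted p = 0.0807), and its groups did not overlap. Without TGF-β1 replicate 3, Ern2, Tspan8 and Pigr had an adjusted p under 0.05 besides Itln1, 4 of 14 beside 15.4% of all genes. The median of the list was 0.21, also with Itln1 and Bpifb1 at their bounds.

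Of 17 genes for the release of mucin granules, 16 were tested, 7 higher and 9 lower, and the median was -0.091. Scin, which encodes the actin-severing protein scinderin, was the only DEG, where 1.19% of all genes were DEGs higher. Scin was higher by 1.75 on the log2 scale (SE 0.26, limma adjusted p = 0.0242). With normexp background it had 0.73, which is under 2-fold, and it was a DEG in 2 of the 6 fits with 1 array left out. The SNARE protein gene Snap23 had 0.47 (limma adjusted p = 0.0948), and 0.52 without TGF-β1 replicate 3 (limma adjusted p = 0.0392). The lowest values were those of Vamp8 (-0.36), Rab27a (-0.35) and Marcks (-0.33), and none of these passed.

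Of 42 upstream regulators of goblet cell differentiation, such as interleukin 13 receptors, EGF receptor ligands, Notch genes and forkhead factors, 38 were tested. As many were higher as lower, 19 each, and the median was 0.012. The median was 0.17 without TGF-β1 replicate 3 and -0.10 with scaling to the 75th percentile. For all genes it was -0.042 and -0.094 in these settings. The 2 DEGs were both higher, where 1.19% of all genes were DEGs higher. Arg1, an arginase that interleukin 13 is known to induce, had a log2 signal of 4.49 ± 0.11 (SD, n = 3) without and 7.46 ± 0.27 (SD, n = 3) with TGF-β1. The difference was 2.97 (SE 0.16, limma adjusted p = 0.00124). It was a DEG in all 6 fits with 1 array left out and with normexp background. Sox9, a transcription factor of airway progenitor cells, had 1.2 (limma adjusted p = 0.0468), but was a DEG in 1 of those 6 fits. Areg, an EGF receptor ligand, had 1.26 (limma adjusted p = 0.127). The lowest were the decoy receptor Il13ra2 (-1.11), the epithelial factor Elf3 (-0.94) and the channel gene Best2 (-0.68), and none of these passed. Without TGF-β1 replicate 3 the list had 6 DEGs higher, among them Areg (1.64), Notch3 (1.39) and Jag1 (1.28), and 1 lower, Elf3 (-1.17). In that fit 3.86% of all genes were DEGs higher and 1.09% DEGs lower.

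**Figure D4:**
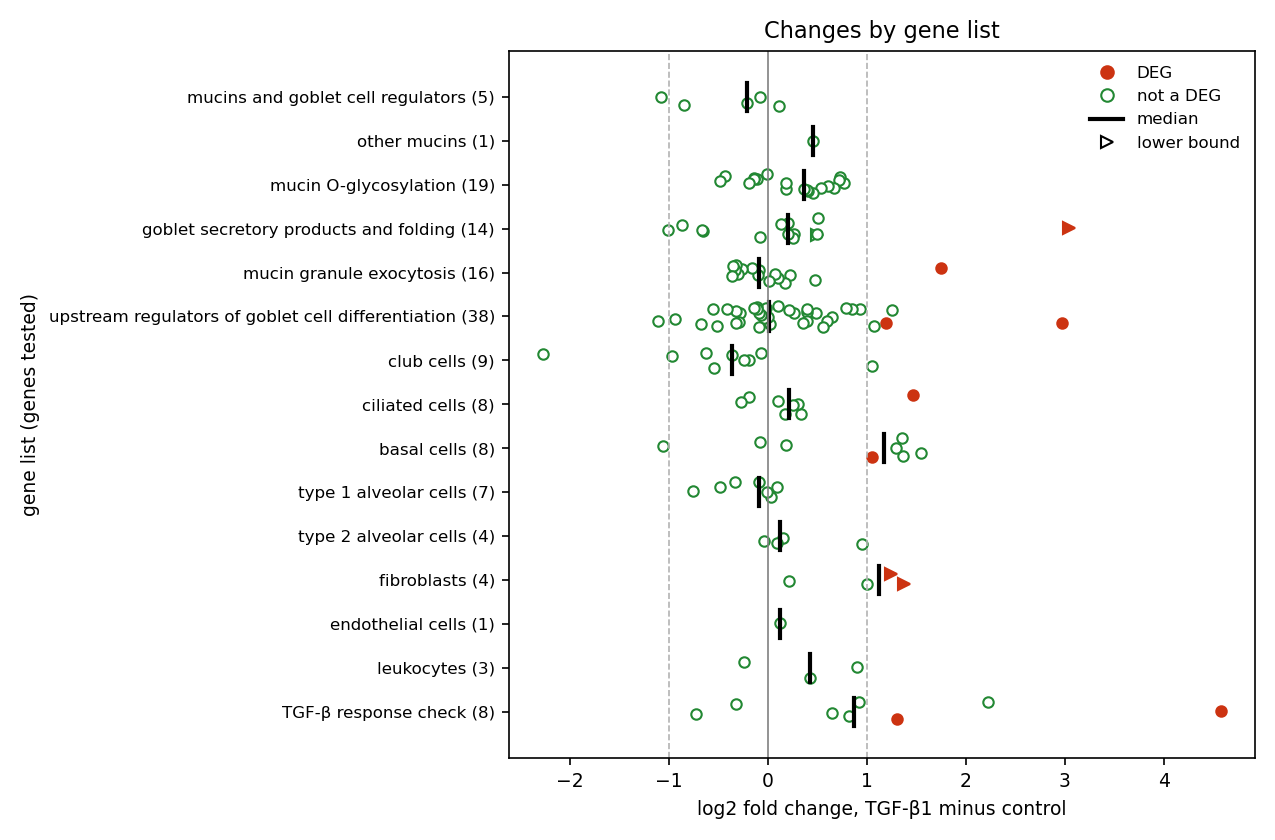
Log2 fold change, TGF-β1 minus control (horizontal axis), of every gene tested in each list (vertical axis, number tested in brackets), with DEGs in red, other genes in green, triangles for lower bounds and black bars for medians. None of the 5 genes tested of the 10 in the top row was a DEG, and the red points of the lists on mucus and goblet cells below it were Itln1, Scin, Arg1 and Sox9.

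Marker lists of other airway cells are given by their counts and medians. Their summed linear levels are given too, but a sum follows the brightest probes of a list and is no measure of the number of cells. Of 9 club cell markers, 8 had a log2 fold change below 0 and none was a DEG, with a median of -0.36. At an unadjusted p under 0.05 limma gave 1 of the 9 higher and 2 lower, beside 11.4% and 10.8% of all genes, and the methods' t-test gave 2 of 9, beside 17.1%. Their summed level, of which Cyp2f2 made up 48.6%, was 348742 to 399128 in controls and 290124 to 324794 after TGF-β1, without overlap. Scgb1a1, the secretoglobin that defines club cells, had -2.27 (limma adjusted p = 0.158). With 1 array left out it had -3.18 to -1.65, with a limma adjusted p under 0.05 in 1 of the 6 fits (0.0205). Scgb3a2 had 1.05 (limma adjusted p = 0.117) and was a DEG without TGF-β1 replicate 3 (1.27, limma adjusted p = 0.0331). Of 8 basal cell markers, 6 were higher, with a median of 1.17. Krt17 was the only DEG among them (1.06, limma adjusted p = 0.0472), where 1.19% of all genes were DEGs higher. Its call was lost with scaling to the 75th percentile (0.83, limma adjusted p = 0.0882). Without TGF-β1 replicate 3 there were 5 DEGs, all higher, Krt14 (1.92), Krt5 (1.90), Ngfr (1.77), Dapl1 (1.51) and Krt17 (1.23), beside 3.86% of all genes. The summed level of basal markers, of which Krt17 made up 48.4%, was 114534 to 143342 in controls and 173402 to 301946 after TGF-β1. Of 8 ciliated cell markers tested, 6 were higher and 2 lower, with a median of 0.22. Foxj1, the master regulator of motile cilia, was the only DEG among these 8 (1.47, limma adjusted p = 0.00238), beside the same 1.19%. Their summed level was 43168 to 45979 in controls and 38112 to 42124 after TGF-β1, of which 93% came from Tubb4b (-0.19, limma adjusted p = 0.302). The part of these shifts in the values of Muc4 and Agr2 was not tested.

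The labelled cell type was checked against markers of other lineages. Ptprc, which marks leukocytes, Cdh5, which marks endothelial cells, and Pdgfrb and Lum, which mark mesenchymal cells, had no array well above background. In the same lists the endothelial marker Pecam1 and the fibroblast markers Pdgfra and Dcn were well above background on all 6 arrays. Of 8 leukocyte markers, 3 were tested, Cd68 (0.90), Itgam (0.43) and Cd3e (-0.24), and none was a DEG. Their summed level, of which Itgam made up 58.7%, was 5599 to 6524 in controls and 8064 to 10167 after TGF-β1. Limma gave 2 of the 3 at an unadjusted p under 0.05, beside 22.2% of all genes, and the methods' t-test gave 1, beside 17.1%. Of 9 fibroblast markers, 4 were tested and 2 were DEGs, where 1.19% of all genes were DEGs higher. They were Col1a1, at least 2.59-fold higher, and Col1a2, at least 2.38-fold higher. Neither was well above background in controls, so that both entered the test through the treated arrays alone. Col1a1 had an adjusted p under 0.05 in 5 and Col1a2 in 3 of the 6 fits with an array left out. Both calls were lost with normexp background. There Col1a1 was higher by 0.60 on the log2 scale (limma adjusted p = 0.0414), which is under 2-fold. Col1a2 was higher by 0.43 on that scale (limma adjusted p = 0.0856). The summed level of the list was 558 to 636 in controls and 690 to 2423 after TGF-β1, and 85.1% of it came from Dcn. Dcn had log2 signals of 8.98, 8.81 and 8.96 in controls and 11.10, 9.68 and 8.98 after TGF-β1 (limma adjusted p = 0.273), with TGF-β1 replicate 1 the highest. Of 9 markers of type 2 alveolar cells, 4 were tested, the surfactant gene Sftpd, Abca3, Lamp3 and Etv5, and none was a DEG. At an unadjusted p under 0.05 limma gave 1 of the 4, Etv5, which was higher, beside 11.4% of all genes. The methods' t-test gave 1, beside 17.1%. Etv5 had 0.95 (limma adjusted p = 0.0544), and 0.90 without TGF-β1 replicate 3 (limma adjusted p = 0.0377). With scaling to the 75th percentile it was a DEG (1.02, limma adjusted p = 0.0326). The other 5, among them the surfactant genes Sftpc, Sftpb and Sftpa1, had no array well above background. All 7 markers of type 1 alveolar cells with a probe were tested, and none was a DEG. At an unadjusted p under 0.05 limma gave 1 of the 7, Clic5, which was lower, beside 10.8% of all genes, and the methods' t-test gave 0, beside 17.1%.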

How the data were processed

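RNA of 3 control and 3 TGF-β1-treated 2D-MAO cultures was labelled with Cy3 and hybridised to Agilent mouse arrays. The authors deposited, per the file headers, spot intensity on a linear scale from Agilent Feature Extraction 11.0.1.1, with background subtracted and without scaling between arrays. Median spot and local background intensity were also deposited and served for the normexp alternative in place of the mean, which was planned.

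Control and marked spots were left out, which left 56599 probes, and 32991 of the 35883 with a RefSeq accession matched a gene of GRCm38.p6. The array design uses an older assembly, so gene positions are given for promoter windows only. Log2 values of the deposited intensity were normalised by quantiles. A probe entered the test when at least 3 of the 6 arrays had it well above background (32460 probes), and the brightest probe stood for a gene. limma 3.58.1 in R 4.3.3 was fitted to 14345 genes without covariates. Exact permutation tests were two-sided. Each bound took, on each array of the dim group, the higher of the lowest signal well above background and the probe's own signal. Distances between arrays were Euclidean over the genes tested.

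The members and the 14 lists were chosen with earlier results of these data known. All members are named, and of each list its DEGs and up to 3 genes with the largest change in each direction, or more where a list has its own paragraph; genes not well above background were named after their values were seen. Alternatives were another scaling, background, filter, probe rule, variance prior, array weights, the methods' t-test, replicate or slide row as a block, slide row 1 alone and each array left out. The fit was tested on simulated data. With arrays, their number limits the precision.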

Additional observations from a re-analysis of the deposited data

How the results depend on the processing

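Whether replicate numbers paired the cultures cannot be settled with 3 arrays per group. Deviations from the group means correlated at -0.0077, 0.33 and -0.047 between arrays of the same number. Between arrays of different numbers they correlated at -0.37 to 0.25. With the replicate block Muc4 had a limma adjusted p of 0.111 and the DEGs among all genes numbered 104, against 198. Of the DEGs named in the lists, Scin (adjusted p = 0.0704), Itln1 (0.128), Sox9 (0.0936) and Krt17 (0.0691) did not pass with the replicate block, and Arg1, Foxj1, Col1a1, Col1a2, Tgfbi and Pmepa1 did. No member was a DEG except under slide row 1 alone, with 1, which was Muc4, and with an array left out, with 0 to 1. The median of the members tested was -0.47 to -0.13 with an array left out, the lowest without control replicate 2. The number of DEGs among all genes was 60 without a filter, 807 with array weights, 388 with the methods' t-test unadjusted, 5 with it adjusted and 861 in slide row 1 alone. With an array left out it was 56 to 709, highest without TGF-β1 replicate 3. Muc4 passed the p threshold in 6 of 18 settings, with an adjusted p of 0.0446 with normexp background (-0.71) and of 0.00815 with array weights (-0.995), and an unadjusted p of 0.0170 by the methods' t-test. Reversed directions were small: Muc1 had 0.0052 without TGF-β1 replicate 2, Muc20 had 0.045 with scaling to the 75th percentile, 0.039 in slide row 1 alone and 4.80e-04 without TGF-β1 replicate 1, and Spdef had -0.12 without TGF-β1 replicate 1. With an array left out Muc1 ranged from -0.47 to 0.0052, Muc20 from -0.19 to 4.80e-04 and Spdef from -0.12 to 0.27. Agr2 could not be tested with detection required on all 6 arrays, and kept its direction in the other 17 settings, without passing in any. Muc5ac, Muc5b, Foxa3 and Tff2 were limited by signal over background. The causes of these differences were not tested.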
